A study of Mus musculus with 2 samples.

Results

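The genes described here carry the signal of Toll-like receptors (TLRs) through the adaptors MyD88 and TRIF to the transcription factor NF-kB. They were listed by name and not by a cut on their values, though earlier results of these data were known. By role they were sorted into receptors, adaptors, kinases, NF-kB subunits with Irf3, and inhibitors. Of 51 listed genes, 43 had at least 1 probe set annotated with that gene alone, 93 probe sets in all, among 18193 genes so represented on the array. The other 8 (Ticam2, Traf3, Irak4, Chuk, Ripk1, Ripk2, Nfkb1 and Tnip3) were not analysed here.

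The arrays compare cultures of peritoneal macrophages, 1 array each: LPS+CPN+GGOH and LPS+CPN. Both were cells of C57BL/6J mice, collected 3 days after thioglycolate was injected to recruit macrophages to the peritoneum, and both received LPS and CPN, so the labelled difference is GGOH (geranylgeraniol, an isoprenoid alcohol that cells can use to anchor proteins in membranes). LPS is lipopolysaccharide, the bacterial ligand of TLR4; CPN is named in the labels by this abbreviation alone, and the sources used here give no doses, treatment times or number of animals. Arrays of untreated cells or of cells given LPS alone were not analysed here, so none of the values below is a response to LPS. With 1 array a group there is no replicate, no test and no p-value, and every difference describes these arrays; the number of arrays limits the precision.

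A TLR that meets its ligand recruits kinases of the IRAK family through MyD88, and ubiquitin ligases of the TRAF family through MyD88 or TRIF. These switch on the IkB kinase complex (IKK), which marks the inhibitor IkB for destruction and so frees NF-kB dimers to enter the nucleus. In macrophages NF-kB then drives inflammatory genes together with genes of its own inhibitors, among them Nfkbia and Tnfaip3, so that the pathway limits itself.

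Signals of this pathway were mostly somewhat lower on the LPS+CPN+GGOH array. Each gene took the value of its brightest probe set, leaving out the class that can cross-hybridise where another existed. The log2 ratio is LPS+CPN+GGOH over LPS+CPN. A floor was set at a signal of 59.9, below which values were not ordered. Of the 43 genes 42 were above the floor on at least 1 array; their median log2 ratio was -0.38, against -0.01 over all 11617 measured genes. A ratio below 0 was found for 33 of the 42, where 51.3% of all measured genes had one. Only Map3k8 and Nfkbie were at least 2-fold lower (1.65% of all measured genes were), and none was at least 2-fold higher (5.72% were). A log2 ratio below -0.5 was found for 15 of the 42, a class that held 11.0% of all genes, and 1 of the 42, Nfkbiz, was above 0.5, a class that held 15.2%. Probe sets that measure 1 gene differed from each other with an SD of 0.45 in log2 ratio, pooled over all genes with several. This SD holds no variation between cultures or animals, which 1 array a group cannot give. It serves below only as a scale of size, and many of the single differences are of that size or smaller.

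The cells of the arrays have to be set beside these values. All 11 macrophage markers with a probe set were above the floor on both arrays, with a summed signal of 147136 in LPS+CPN+GGOH cells and 176625 in LPS+CPN cells and a median log2 ratio of -0.34, close to that of the pathway. Of these 11, 8 were below 0; Itgam went the other way, at 646 in LPS+CPN+GGOH cells and 312 in LPS+CPN cells (log2 ratio 1.05). Fibroblast markers had a summed signal of 28928 in LPS+CPN+GGOH cells (8 of 9 above the floor), against 1317 in LPS+CPN cells (3 of 9). Mesothelial markers summed to 2466 in LPS+CPN+GGOH cells (7 of 7 above the floor) and 225 in LPS+CPN cells (1 of 7). All 7 mesothelial and 7 of the 8 measured fibroblast markers were at least 2-fold higher. Neutrophil markers summed to 2364 in LPS+CPN+GGOH cells (1 of 5 above the floor), against 4486 in LPS+CPN cells (3 of 5). Nearly all of it was S100a8, with 2216 in LPS+CPN+GGOH cells and 4282 in LPS+CPN cells. S100a9 (2.59 in LPS+CPN+GGOH cells and 3.49 in LPS+CPN cells) and Camp were below the floor on both arrays. Ngp and Elane were above it only in LPS+CPN cells, at 75.4 and 67.7. Dendritic cell markers summed to 214 in LPS+CPN+GGOH cells (2 of 4 above the floor) and 168 in LPS+CPN cells (1 of 4), and endothelial markers to 229 in LPS+CPN+GGOH cells and 323 in LPS+CPN cells (2 of 4 on each array), with Vwf 2.1-fold lower. No B cell, T and NK cell, or mast cell and eosinophil marker was above the floor on either array. RNA also differed in its ends: the ratio of 3' to 5' signal was 1.24 for Actb and 0.956 for Gapdh in LPS+CPN+GGOH cells, against 2.44 and 1.98 in LPS+CPN cells. The part of these differences in the pathway's ratios was not tested, and in such bulk RNA fewer cells of a type and less RNA per cell cannot be told apart. When the arrays were scaled to a macrophage marker median of 0, the pathway's median was -0.05 and that of all genes 0.30; 23 of the 42 genes were then below 0 and 19 above it, and Nfkbiz was the only one past 2-fold.

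**Figure D1:**
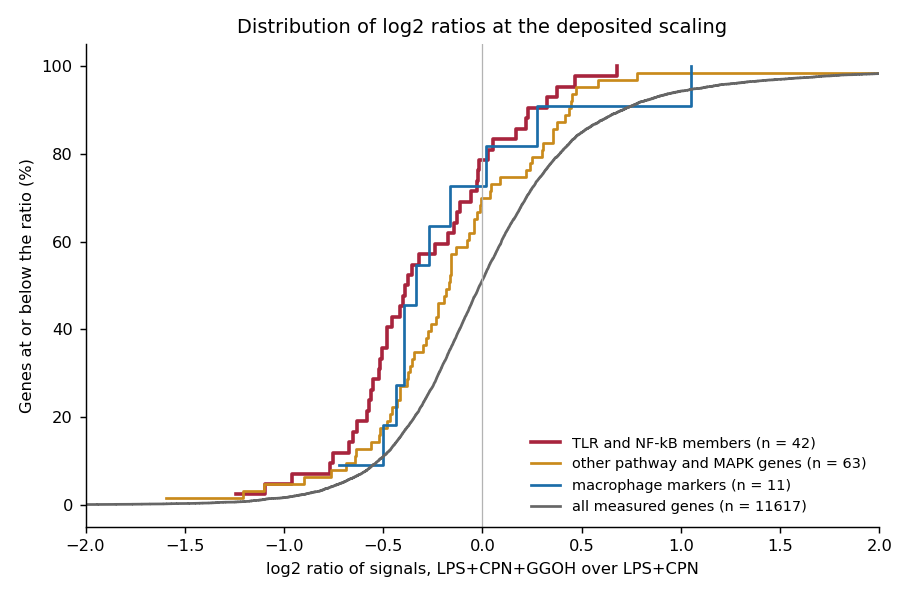
Share of genes (vertical axis, percent) at or below each log2 ratio of signals, LPS+CPN+GGOH over LPS+CPN (horizontal axis, drawn between -2 and 2), for the 42 measured pathway genes, 63 other genes of the pathway and its MAPK arm, 11 macrophage markers and all 11617 measured genes. The pathway's curve lies left of that of all genes and near that of the macrophage markers.

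Many inhibitors are themselves target genes of NF-kB, and the promoters of 4 members that carry the sequence NF-kB recognises are shown, 3 inhibitors with a ratio below 0 and Rel above it, chosen after their values were seen. The windows run from 250 bases before to 50 bases after a transcript start (RefSeq, GRCm38.p6); 39 of the 51 listed genes had 1 or more. They were searched on both strands for the NF-kB consensus, a kB site of 10 bases, and matches, overlapping ones included, are in capitals. The windows are Nfkbia (chr12:55492598-55492897, minus strand), Nfkbie (chr17:45555450-45555749, plus strand), Bcl3 (chr7:19822706-19823005, minus strand) and Rel (chr11:23770920-23771219, minus strand).
Nfkbia: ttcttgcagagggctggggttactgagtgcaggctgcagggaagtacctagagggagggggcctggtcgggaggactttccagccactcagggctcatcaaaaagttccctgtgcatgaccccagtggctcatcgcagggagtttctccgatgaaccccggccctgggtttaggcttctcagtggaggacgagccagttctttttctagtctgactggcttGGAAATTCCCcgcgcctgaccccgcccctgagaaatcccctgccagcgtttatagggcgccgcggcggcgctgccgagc
Nfkbie: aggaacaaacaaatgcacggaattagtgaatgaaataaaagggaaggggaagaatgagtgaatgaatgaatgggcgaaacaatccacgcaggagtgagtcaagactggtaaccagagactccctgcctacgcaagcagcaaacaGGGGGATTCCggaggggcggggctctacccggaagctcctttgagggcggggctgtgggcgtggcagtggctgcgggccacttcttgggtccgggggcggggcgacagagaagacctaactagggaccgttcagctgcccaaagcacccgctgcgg
Bcl3: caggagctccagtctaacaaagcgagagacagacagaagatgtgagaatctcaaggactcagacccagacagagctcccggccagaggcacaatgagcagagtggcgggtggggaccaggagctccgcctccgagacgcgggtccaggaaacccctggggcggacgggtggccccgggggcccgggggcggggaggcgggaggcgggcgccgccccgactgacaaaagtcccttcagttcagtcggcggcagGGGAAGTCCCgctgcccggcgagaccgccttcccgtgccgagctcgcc
Rel: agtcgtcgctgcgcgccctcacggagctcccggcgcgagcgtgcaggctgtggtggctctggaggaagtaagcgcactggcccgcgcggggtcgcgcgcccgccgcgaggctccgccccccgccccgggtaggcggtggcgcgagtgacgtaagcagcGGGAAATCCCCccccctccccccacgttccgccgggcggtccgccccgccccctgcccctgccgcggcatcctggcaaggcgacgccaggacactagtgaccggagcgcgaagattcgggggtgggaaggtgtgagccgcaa
The match began 29 bases before the start in Nfkbia, 106 bases before it in Nfkbie and 2 bases after it in Bcl3, and Rel had 2 overlapping matches, at 92 and 91 bases before the start. Of the inhibitors' 11 windows 7 held the consensus (63.6%), against 15 of the 52 windows of all listed genes (28.8%) and 4.51% of all 32851 promoter windows. The stricter letters GGGNNTTTCC, which partly overlap the consensus, were in 21.2% of the listed genes' windows and 1.63% of all. Of 13 listed genes with a match 11 were measured. Of these, 8 were below 0 (Nfkbie, Cyld, Bcl3, Nfkbia, Nfkb2, Tnip1, Tlr3 and Tnfaip3) and 3 above it (Rel, Map3k7 and Tlr2), with log2 ratios between -1.10 and 0.32. Their median was -0.42, near the -0.38 of all 42 measured members, of which 33 (78.6%) were below 0. Those 42 include the 11 themselves and members that had no window to search, Map3k8 and Nfkbiz among them. Whether genes with a match differ from searched genes without one therefore cannot be read from these medians. Among all measured genes 51.3% were below 0. A match of letters is not evidence of binding.

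Receptors stayed nearest to the level of all genes, with a median log2 ratio of -0.04 over 10 measured genes, 5 below 0 and 5 above it, and none past 2-fold. The receptor for LPS is TLR4, which binds it through Ly96 (the co-receptor MD-2) after CD14 has handed it over. Tlr4 had a signal of 254 in LPS+CPN+GGOH cells and 374 in LPS+CPN cells (log2 ratio -0.56), and its second measured probe set gave -0.42. Cd14 had a signal of 17267 in LPS+CPN+GGOH cells and 13293 in LPS+CPN cells (0.38). Ly96 had 1857 in LPS+CPN+GGOH cells and 1586 in LPS+CPN cells (0.23). The receptor and its 2 accessory genes thus lay on opposite sides of 0, under each of the 5 scalings tried: Tlr4 between -0.75 and -0.23, Cd14 between 0.21 and 0.71, and Ly96 between 0.06 and 0.56.

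Among receptors of bacterial lipopeptides, Tlr2 had a signal of 773 in LPS+CPN+GGOH cells and 746 in LPS+CPN cells (log2 ratio 0.05). Its partners were Tlr1, with 685 in LPS+CPN+GGOH cells and 749 in LPS+CPN cells (-0.13), and Tlr6, with 257 in LPS+CPN+GGOH cells and 358 in LPS+CPN cells (-0.48). Only Tlr6 of these differed by more than the spread between probe sets. The receptors of nucleic acids sit in endosomes. Tlr13, which in mice senses bacterial ribosomal RNA, was lower, at 1947 in LPS+CPN+GGOH cells and 2795 in LPS+CPN cells (-0.52). Tlr7, a sensor of single-stranded RNA, had 722 in LPS+CPN+GGOH cells and 642 in LPS+CPN cells (0.17), and of its other 2 probe sets 1 was level (162 in LPS+CPN+GGOH cells, 163 in LPS+CPN cells) and 1 gave 0.66. Tlr3, a sensor of double-stranded RNA that signals through TRIF, had 203 in LPS+CPN+GGOH cells and 254 in LPS+CPN cells (-0.32), and a dimmer probe set that was above the floor only in LPS+CPN+GGOH cells was at least 1.48-fold higher. The endosomal receptors thus differed in both directions. Tlr9, a sensor of unmethylated DNA, was above the floor only in LPS+CPN+GGOH cells (82.8, against 31.8 in LPS+CPN cells), which makes it at least 1.38-fold higher. Tlr8 was at 14.7 in LPS+CPN+GGOH cells and 6.01 in LPS+CPN cells, below the floor on both arrays.

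**Figure D2:**
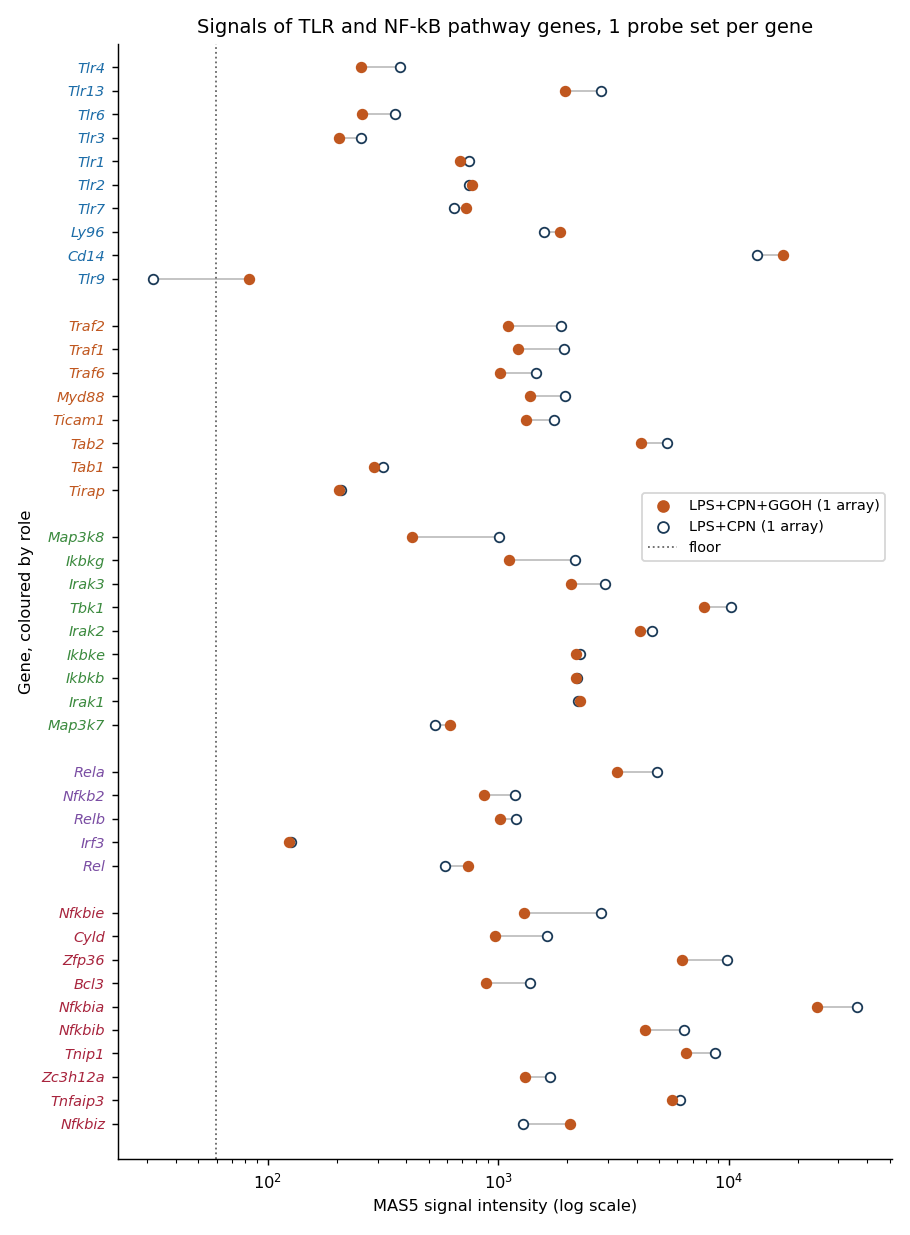
MAS5 signal intensity (log axis) of the probe set used for each of the 42 measured genes, 1 array each. Filled marks are LPS+CPN+GGOH cells and open marks LPS+CPN cells. Rows are by role (receptors at the top, then adaptors, kinases, NF-kB subunits with Irf3, and inhibitors). The dotted line is the floor at 59.9. Signals of all 8 adaptors and of 9 of 10 inhibitors were lower in LPS+CPN+GGOH cells, while receptors lay on both sides. Among all measured genes 51.3% had a ratio below 0.

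All 8 measured adaptors had a ratio below 0 at the deposited scaling, against 51.3% of all measured genes and 72.7% of the macrophage markers. Their median was -0.45, with values between -0.77 and -0.02. Adaptors carry no catalytic kinase activity; they bring receptors and kinases together. Myd88, the adaptor of nearly all TLRs, had a signal of 1373 in LPS+CPN+GGOH cells and 1952 in LPS+CPN cells (log2 ratio -0.51). Ticam1, which encodes TRIF and opens the route to interferon, had 1322 in LPS+CPN+GGOH cells and 1745 in LPS+CPN cells (-0.40). Tirap, which bridges MyD88 to TLR4, had 204 in LPS+CPN+GGOH cells and 207 in LPS+CPN cells (-0.02), with its other probe set at 0.13. At the deposited scaling the bridging adaptor was thus level while MyD88 and TRIF, at similar ratios to each other, were lower. The ratio of Ticam1 was inside the 0.45 spread between probe sets. Quantile normalization put Tirap at -0.25 and Ticam1 at -0.37, and equal macrophage markers put them at 0.31 and -0.06. Tab1 was also above 0 at equal macrophage markers (0.19), so not all adaptors stayed below 0 there.

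The TRAF genes had the lowest ratios of the adaptors. Traf2, a signal transducer of TNF receptors, had 1106 in LPS+CPN+GGOH cells and 1883 in LPS+CPN cells (log2 ratio -0.77, 1.70-fold lower). Traf1, an NF-kB target that pairs with TRAF2, had 1216 in LPS+CPN+GGOH cells and 1936 in LPS+CPN cells (-0.67), and its second probe set gave -0.62. Traf6, the ubiquitin ligase of the MyD88 route, was below 0 in 4 of 4 measured probe sets, between -0.81 and -0.43. Its brightest probe set had 1021 in LPS+CPN+GGOH cells and 1462 in LPS+CPN cells. These 3 genes stayed below 0 under all 5 scalings; at equal macrophage markers they were at -0.34 for Traf1, -0.43 for Traf2 and -0.18 for Traf6. Tab1 and Tab2, whose proteins bind the kinase of Map3k7, were at -0.14 and -0.38, and the second probe set of Tab2 was at 0.04.

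The kinases had a median of -0.17, with 7 of 9 below 0 against 51.3% of all measured genes. They held the largest difference among the 42 gene values. Map3k8 encodes the kinase that links IKK to the ERK arm of the response and that LPS needs for TNF production in mouse macrophages. Its only probe set had a signal of 425 in LPS+CPN+GGOH cells and 1008 in LPS+CPN cells, a log2 ratio of -1.24 or 2.37-fold lower. The value lay between -1.41 and -0.91 over the 5 scalings, short of 2-fold at equal macrophage markers. Ikbkg, the regulatory subunit NEMO that holds the IKK complex together, came next with 1110 in LPS+CPN+GGOH cells and 2159 in LPS+CPN cells (-0.96). Its 6 probe sets spread from -0.96 to 0.02 with 5 below 0, so the size of its difference depended on the probe set.

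The other subunits and upstream kinases differed less. Ikbkb, the catalytic subunit of IKK that acts in the TLR route, had 2170 in LPS+CPN+GGOH cells and 2199 in LPS+CPN cells (log2 ratio -0.02), with dimmer probe sets between -0.43 and 0.79. Map3k7, the kinase that activates IKK, was at 0.22 in its brightest probe set (617 in LPS+CPN+GGOH cells and 530 in LPS+CPN cells), but a dimmer one had 232 in LPS+CPN+GGOH cells and 560 in LPS+CPN cells (-1.27). Its 4 measured probe sets were split, 2 above 0 and 2 below. No direction can be given for Map3k7 from these arrays. Of the 2 kinases that TRIF uses to activate Irf3, Tbk1 had 7799 in LPS+CPN+GGOH cells and 10217 in LPS+CPN cells (-0.39, with its other probe set at -0.40), and Ikbke had 2171 in LPS+CPN+GGOH cells and 2258 in LPS+CPN cells (-0.06).

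Of the IRAK kinases, which MyD88 recruits, Irak1 was at 0.03 in its brightest unique probe set and between -0.67 and -0.20 in 3 others, of which 2 belong to the class that can cross-hybridise. Irak2 had 4125 in LPS+CPN+GGOH cells and 4651 in LPS+CPN cells (log2 ratio -0.17). Irak3 is the IRAK without kinase function that restrains TLR signalling and marks tolerant macrophages. It had 2080 in LPS+CPN+GGOH cells and 2903 in LPS+CPN cells (-0.48), and a dimmer probe set gave 0.46. Probe sets of Irak1 and of Irak3 thus lay on both sides of 0.

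**Figure D3:**
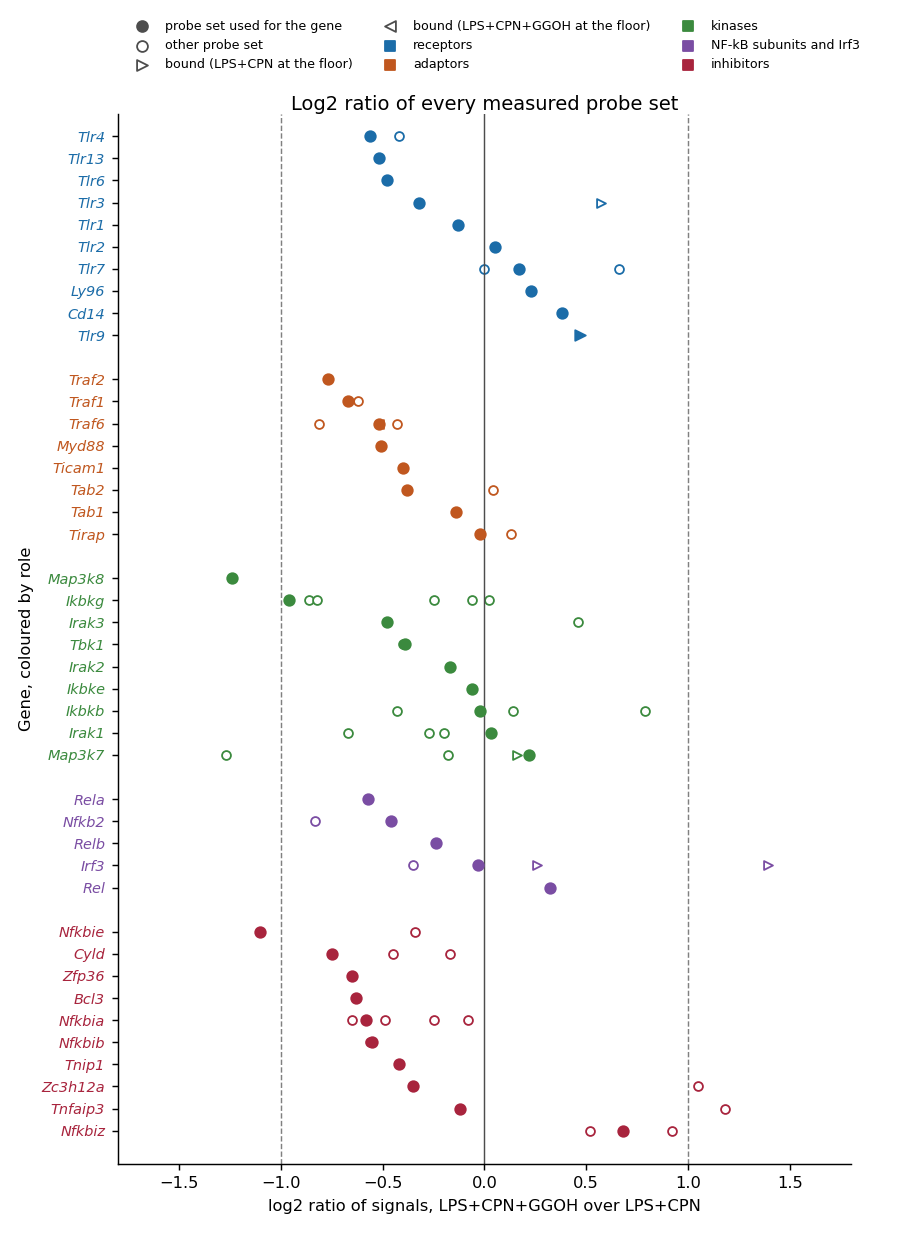
Log2 ratio of signals, LPS+CPN+GGOH over LPS+CPN, of each measured probe set (horizontal axis) of the 42 genes (rows, by role). Filled marks are the probe set used for the gene, open marks the others and triangles bounds, with dashed lines at 2-fold. The 3 probe sets of Nfkbiz lie together above 0 and the 5 of Nfkbia below it. Tnfaip3 and Zc3h12a have 1 probe set on each side.

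Of the NF-kB subunits and Irf3, 4 of 5 measured genes were below 0, against 51.3% of all measured genes. Their median was -0.24, and none was past 2-fold. Rela, the transactivating subunit of the main dimer in TLR signalling, had a signal of 3280 in LPS+CPN+GGOH cells and 4872 in LPS+CPN cells (log2 ratio -0.57). Rel encodes c-Rel, which in macrophages is needed for Il12b, and it was the only subunit higher, with 737 in LPS+CPN+GGOH cells and 589 in LPS+CPN cells (0.32). Over the 5 scalings Rela stayed between -0.74 and -0.24 and Rel between 0.16 and 0.66, so these subunits kept opposite signs. Of the subunits of the alternative route, Nfkb2 had 865 in LPS+CPN+GGOH cells and 1188 in LPS+CPN cells (-0.46, with its other probe set at -0.83). Relb had 1019 in LPS+CPN+GGOH cells and 1201 in LPS+CPN cells (-0.24), and its sign turned at equal macrophage markers (0.10).

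Irf3, the transcription factor that TRIF signalling activates, could not be given a direction. Its brightest unique probe set had 124 in LPS+CPN+GGOH cells and 126 in LPS+CPN cells (log2 ratio -0.03), and a brighter one that can cross-hybridise gave -0.35. Another had 157 in LPS+CPN+GGOH cells and was under the floor in LPS+CPN cells (46.1), so at least 2.62-fold higher there. Signals of the unique probe sets were low, between 71.7 and 157 in LPS+CPN+GGOH cells and between 35.4 and 126 in LPS+CPN cells.

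Inhibitors had the lowest median of the roles, -0.56 over 10 measured genes. Of these, 9 were below 0 (51.3% of all measured genes were) and 6 below -0.5 (11.0% were). The count depends on the probe set: with the median over probe sets Tnfaip3 and Zc3h12a were above 0, at 0.53 and 0.35. The IkB proteins hold NF-kB dimers in the cytoplasm. Nfkbia, which encodes IkB-alpha, was below 0 in 5 of 5 probe sets, with 24222 in LPS+CPN+GGOH cells and 36192 in LPS+CPN cells in the brightest (log2 ratio -0.58) and a range from -0.65 to -0.08. Nfkbib, for IkB-beta, had 4360 in LPS+CPN+GGOH cells and 6380 in LPS+CPN cells (-0.55), and its second probe set gave -0.56. Nfkbie, for IkB-epsilon, was the second member past 2-fold. It had 1301 in LPS+CPN+GGOH cells and 2782 in LPS+CPN cells (-1.10, 2.14-fold lower), while its dimmer probe set had 360 in LPS+CPN+GGOH cells and 457 in LPS+CPN cells (-0.34). All 3 classical IkB genes were thus lower in every measured probe set at the deposited scaling. Their brightest probe sets stayed below 0 under the 5 scalings, which were read for that probe set alone.

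The nuclear IkB relatives parted. Nfkbiz encodes IkB-zeta, which in the nucleus works with NF-kB to turn on a second wave of genes, Il6 among them. It was higher in 3 of 3 probe sets: 2060 in LPS+CPN+GGOH cells and 1286 in LPS+CPN cells in the brightest (log2 ratio 0.68, 1.60-fold), and 0.92 and 0.52 in the others. Bcl3, which binds homodimers of the NF-kB subunits that lack a transactivation domain and limits TLR responses in mouse macrophages, had 887 in LPS+CPN+GGOH cells and 1377 in LPS+CPN cells (-0.63). Nfkbiz was the only inhibitor above 0 at the deposited scaling, and without it the median of the other 9 was -0.58. It lay between 0.51 and 1.02 over the scalings.

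Of the enzymes that remove ubiquitin chains from the pathway, Cyld had 970 in LPS+CPN+GGOH cells and 1635 in LPS+CPN cells (log2 ratio -0.75, 1.68-fold lower), with 3 of 3 measured probe sets below 0, between -0.75 and -0.17. Tnfaip3 is the ubiquitin-editing enzyme induced by NF-kB that shuts the pathway off. Its bright probe set had 5705 in LPS+CPN+GGOH cells and 6181 in LPS+CPN cells (-0.12), its dim one 313 in LPS+CPN+GGOH cells and 138 in LPS+CPN cells (1.18), so the probe sets disagreed. Tnip1, a ubiquitin-binding partner of the Tnfaip3 protein, had 6568 in LPS+CPN+GGOH cells and 8763 in LPS+CPN cells (-0.42).

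The last 2 inhibitors act on messenger RNA. Zfp36, whose protein binds AU-rich elements and speeds the decay of Tnf mRNA, had 6266 in LPS+CPN+GGOH cells and 9858 in LPS+CPN cells (log2 ratio -0.65, 1.57-fold lower) in its only probe set. Zc3h12a, a ribonuclease that cleaves Il6 mRNA, had 1310 in LPS+CPN+GGOH cells and 1674 in LPS+CPN cells (-0.35), but 410 in LPS+CPN+GGOH cells and 198 in LPS+CPN cells in its dim probe set (1.05). Zfp36 stayed below 0 under all 5 scalings, between -0.82 and -0.32, whereas no direction holds for both probe sets of Zc3h12a.

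**Figure D4:**
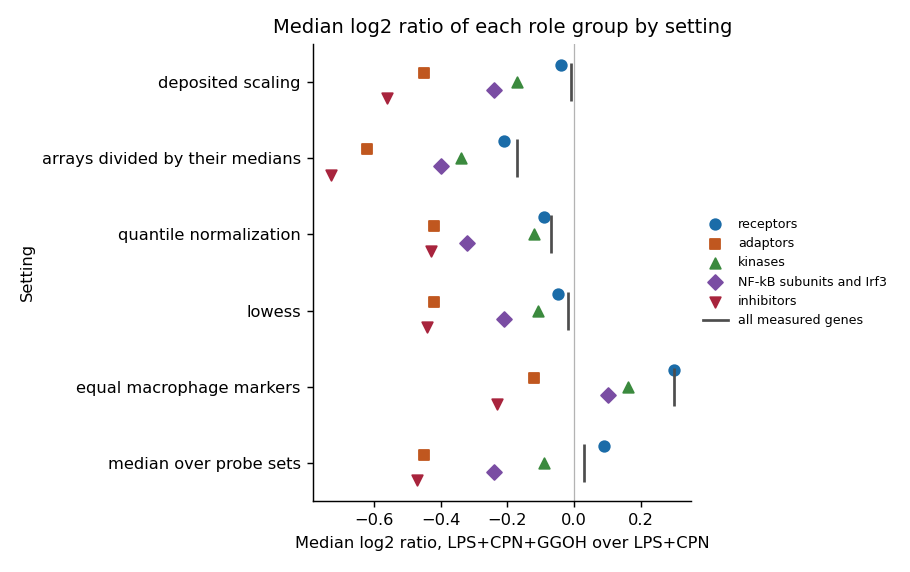
Median log2 ratio, LPS+CPN+GGOH over LPS+CPN (horizontal axis), of each role group under the deposited scaling, 4 other scalings and the median over probe sets (rows), with the median of all measured genes as a vertical tick. Inhibitors and adaptors have the lowest medians in each row, -0.56 and -0.45 at the deposited scaling and -0.23 and -0.12 at equal macrophage markers, and receptors lie near the median of all genes.

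Inhibitors and adaptors had the 2 lowest medians under the deposited and the 4 other scalings and with the median over probe sets, and both stayed below 0 in each of these. Array medians and equal macrophage markers shift nearly all log2 ratios by the same amount. The order of the role medians was thus nearly fixed in advance under those scalings. In all, 23 of the 42 genes were below 0 and 7 above it under all 5 scalings. The other 12, among them Tlr2, Irak1, Ikbkb, Ikbke, Relb, Irf3 and Tnfaip3, changed sign with the scaling. The same count was not made over all measured genes, whose median moved between -0.17 and 0.3 over these scalings. Whether the members keep their sign more often than other genes therefore cannot be read from it.

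Probe sets of 1 gene often disagreed, as they did on these arrays in general. Of the 93 probe sets 84 were measured, 60 of them below 0. Their median log2 ratio was -0.29, against 0.03 over the measured probe sets of all genes. Of the 84, 3 were at least 2-fold lower (1.58% of the measured probe sets of all genes) and 3 at least 2-fold higher (6.29%). The 3 lower ones belong to Map3k8, Nfkbie and Map3k7, the 3 higher ones to Irf3 (a bound), Tnfaip3 and Zc3h12a. Of 19 members with several unique probe sets above the floor on both arrays, 9 had probe sets on both sides of 0 (47.4%, against 55.1% of 4166 such genes). In 11 of the 19 the dimmest probe set had a higher ratio than the brightest, against 60.6% of all such genes, so this lean is one the arrays share. The ratio of 3' to 5' control signal differed between the arrays as given above, and its part in these disagreements was not tested.

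The rest of the pathway was read from a list of 57 further TLR and NF-kB genes and 17 kinases of the MAPK arm. Of the 57, 50 were measured, with a median log2 ratio of -0.16, 33 below 0 (51.3% of all measured genes were), 2 at least 2-fold lower (1.65% of all) and 1 at least 2-fold higher (5.72% of all), so the list's shares past 2-fold rest on 3 genes. Nod1, a cytoplasmic sensor of bacterial peptidoglycan that signals to NF-kB, was 3.02-fold lower, at 824 in LPS+CPN+GGOH cells and 2486 in LPS+CPN cells. Birc3, an NF-kB target and ubiquitin ligase, had 3797 in LPS+CPN+GGOH cells and 8151 in LPS+CPN cells (-1.10), with a dimmer probe set at 0.45. Il1r1, the interleukin-1 receptor, which uses the same MyD88 route, was above the floor only in LPS+CPN+GGOH cells (501, against 2.61 in LPS+CPN cells), at least 8.36-fold higher. Fibroblast and mesothelial markers were also higher in LPS+CPN+GGOH cells (values above), and their part in the Il1r1 signal was not tested. Il1rap, the co-receptor, had probe sets at -0.90 and 0.98.

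In the MAPK arm 13 of 17 genes were measured, 11 of them below 0 (84.6%, against 51.3% of all measured genes), with a median of -0.27. Map3k5, a stress-activated kinase, was the only one past 2-fold (1.65% of all measured genes were at least 2-fold lower), at 98.5 in LPS+CPN+GGOH cells and 227 in LPS+CPN cells (log2 ratio -1.21, with its other probe set at -0.24). Map2k1, the kinase that Map3k8 activates, had 3912 in LPS+CPN+GGOH cells and 5603 in LPS+CPN cells (-0.52). Mapkapk3, a kinase downstream of p38, was at -0.64 and -0.37 in its probe sets, and Rps6ka5, a kinase of chromatin proteins, at -0.52 close to the floor. Map2k2, the close relative of Map2k1, was at -0.01.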

How the data were processed

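RNA of 2 cultures was measured on 1 array each, with 45101 probe sets. Signals were made with MAS5, per the submitters' processing notes (neither its version nor a scaling target is given in the sources used here). The deposited intensity values are linear and already scaled by the authors: the mean of the central 96% of signals was 500 on both arrays, with medians of 63.7 in LPS+CPN+GGOH cells and 56.7 in LPS+CPN cells.

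From these, 34958 probe sets with 1 gene symbol in the platform annotation were kept; 0 symbols needed updating against RefSeq. Members, lists and alternatives were chosen with earlier results of these data known. Signals were floored at the 50th percentile of both arrays together (59.9). Each gene was read from its brightest probe set by mean log2 signal, without the cross-hybridising class (_x_at) where another existed, and bounds counted at their value. The cut of 2-fold is descriptive. Named were all members past 2-fold in any probe set, those with the 4 highest and 4 lowest ratios of each role, those with probe sets of opposite sign, and among the other pathway and MAPK genes those past 2-fold and the 4 largest of each list; markers are given as lists, with single ones chosen after their values were seen. All members were covered. Alternatives were 4 scalings (array medians, quantile, lowess with span 0.4, equal macrophage markers), the 25th or 75th percentile as floor, the floor as a pseudocount instead, the median over probe sets, and _x_at kept. The steps were checked on simulated arrays with a noise SD of 0.15 and changes planted only in genes well above the floor. At least 98.0% of the planted changes of each size were recovered. That check does not cover signals near the floor or the 0.45 spread between probe sets. Software was Python 3.11.15, pandas 2.3.3 and statsmodels 0.14.6.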

Additional observations from a re-analysis of the deposited data

How the results depend on the processing

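No paired analysis was possible because each group has 1 array. At equal macrophage markers 1 member was at least 2-fold higher (Nfkbiz) and 0 were lower; with the floor at the 25th percentile 1 was higher (Tlr9); with the median over probe sets 1 was lower (Map3k8). Dividing the arrays by their medians brought the members' median to -0.55 and added Ikbkg to those 2-fold lower. The members' median stayed below 0 in all 9 alternatives, between -0.55 and -0.05; its difference from that of all genes was between -0.38 and -0.23. The medians of receptors, kinases and NF-kB subunits with Irf3 turned to 0.30, 0.16 and 0.10 at equal macrophage markers, and that of receptors also to 0.03, 0.11 and 0.09 with the floors at the 25th and 75th percentiles and the median over probe sets. Of the other pathway and MAPK genes, 1 was higher and 3 were lower at the deposited scaling; 2 were higher and 1 lower at equal macrophage markers, 2 were higher with the floor at the 25th percentile, 0 with that at the 75th, and 1 was lower with the median over probe sets. Over all genes, 664 were higher and 192 lower at the deposited scaling. These counts were 1262 and 80 at equal macrophage markers, 556 and 335 for arrays divided by medians, 527 and 313 for quantile normalization, 1697 and 1169 for the 25th percentile as floor and 130 and 88 for the 75th. Of single members, Irak1 with _x_at kept (-0.67), Irak3, Tnfaip3 and Zc3h12a with the median over probe sets (-0.01, 0.53 and 0.35) and Tlr9 with the lower floor (1.38) moved by more than 0.45; these values follow from which probe sets and signals each alternative lets in. Signals near the floor, as for Tlr9, Irf3 and Tlr8, limit what can be read from these arrays.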
